A study of Mus musculus with 8 samples.

Results

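The epidermal differentiation complex is a cluster of genes on mouse chromosome 3 that encode structural proteins of the outer skin, their small relatives and calcium-binding S100A proteins. Its members were taken as every gene of a RefSeq mouse table whose symbol starts with Lce, Sprr or S100a, together with Flg, Flg2, Hrnr, Rptn, Crnn, Tchh, Tchhl1, Lor and Ivl, and probes were matched to them by RefSeq accession. The table holds 63 such genes. Of these, 53 had a probe on the array, which names 20128 genes in all, with 62 of its 55681 probes, and 10 (Flg among them) had no matched probe and were not analysed here. All of the matched members lie on chromosome 3. Testing required a signal that the scanner software marks as well above background on 2 or more of the 8 arrays. By that filter 49 members with 57 probes were tested, and 35 of them passed the mark on all 8 arrays. Sprr2b, Sprr2j-ps, Sprr2k and Sprr3 were at background on all 8 arrays and could not be tested.

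Total RNA from mouse skin was measured on single-colour Agilent arrays, with 1 array per sample, and all mice were of the C57BL/6N strain. The series title describes mice edited with CRISPR/Cas9 that lose hair in patches. The 3 groups were hair loss skin of Cchcr1 mutants (n = 2, Mutant097S1 and Mutant113S1), normal skin of Cchcr1 mutants (n = 4, Mutant097B1, Mutant097A1, Mutant113B1 and Mutant113A1) and normal skin of the wild type (n = 2, Wild001B1 and Wild001A1). The labels give neither age nor sex nor the nature of the mutation, and they do not say what the number and the letter in a title stand for. Samples of 1 number may come from 1 animal, so p-values measure the spread between these samples, which may be technical. Both wild type samples carry 1 number, so against wild type the genotype and the number cannot be told apart. In whole skin, fewer cells of a type and less RNA per cell cannot be told apart either.

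Keratinocytes that leave the basal layer of the epidermis replace their plasma membrane with a cornified envelope, in which transglutaminases cross-link loricrin, involucrin, small proline-rich proteins and late cornified envelope proteins. Filaggrin and its relatives are large S100-fused proteins that bind keratin filaments, and trichohyalin does this in the inner root sheath and medulla of the hair follicle. Several Sprr, Lce3 and S100a genes are low in resting epidermis and are known to be induced in injured or inflamed epidermis.

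Promoters are shown for members that represent the main patterns described below. They are the hair members Tchh and Tchhl1, the filaggrin relative Crnn and the steady envelope gene Lor. The others are the graded Lce1e and the stress genes Sprr1b and Lce3c. Each sequence is the 250 bases before the transcription start in RefSeq on build GRCm38.p6, written 5′ to 3′ on the strand of the gene. Capitals mark matches, on either strand, to TGANTCA and to TATAAA (the TATA box). TGANTCA is the AP-1 motif widened to any middle base, and it reads the same on both strands. The windows are chr3:93442080-93442329 (Tchh, plus strand), chr3:93468504-93468753 (Tchhl1, plus strand), chr3:93144539-93144788 (Crnn, plus strand), chr3:92083143-92083392 (Lor, minus strand), chr3:92709075-92709324 (Lce1e, minus strand), chr3:92438780-92439029 (Sprr1b, minus strand) and chr3:92944236-92944485 (Lce3c, plus strand).

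Tchh: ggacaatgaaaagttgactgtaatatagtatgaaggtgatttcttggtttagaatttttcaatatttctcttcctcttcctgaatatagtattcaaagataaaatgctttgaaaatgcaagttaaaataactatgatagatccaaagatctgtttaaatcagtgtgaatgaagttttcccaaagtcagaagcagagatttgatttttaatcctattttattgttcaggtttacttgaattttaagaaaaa
Tchhl1: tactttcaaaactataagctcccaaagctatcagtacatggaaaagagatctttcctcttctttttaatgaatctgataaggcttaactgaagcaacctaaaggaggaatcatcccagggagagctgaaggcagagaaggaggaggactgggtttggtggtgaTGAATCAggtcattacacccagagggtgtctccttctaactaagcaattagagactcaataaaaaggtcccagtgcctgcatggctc
Crnn: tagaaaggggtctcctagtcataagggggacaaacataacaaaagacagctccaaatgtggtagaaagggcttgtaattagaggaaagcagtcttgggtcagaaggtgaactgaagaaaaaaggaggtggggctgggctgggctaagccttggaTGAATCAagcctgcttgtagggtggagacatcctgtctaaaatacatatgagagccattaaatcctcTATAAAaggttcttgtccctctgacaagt
Lor: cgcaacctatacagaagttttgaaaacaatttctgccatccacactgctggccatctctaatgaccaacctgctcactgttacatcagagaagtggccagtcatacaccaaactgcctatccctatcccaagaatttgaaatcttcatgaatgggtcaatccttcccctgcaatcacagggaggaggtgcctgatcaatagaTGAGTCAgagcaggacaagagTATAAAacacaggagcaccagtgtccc
Lce1e: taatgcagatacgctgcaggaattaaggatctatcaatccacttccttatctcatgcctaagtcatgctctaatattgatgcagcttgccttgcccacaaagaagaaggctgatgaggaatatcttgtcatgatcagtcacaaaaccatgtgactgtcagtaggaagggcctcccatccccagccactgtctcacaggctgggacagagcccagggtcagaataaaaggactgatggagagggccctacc
Sprr1b: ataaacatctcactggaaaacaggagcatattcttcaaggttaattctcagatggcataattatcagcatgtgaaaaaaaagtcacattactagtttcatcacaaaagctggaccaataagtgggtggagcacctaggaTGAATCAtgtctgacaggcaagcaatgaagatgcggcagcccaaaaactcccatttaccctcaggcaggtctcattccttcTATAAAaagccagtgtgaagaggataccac
Lce3c: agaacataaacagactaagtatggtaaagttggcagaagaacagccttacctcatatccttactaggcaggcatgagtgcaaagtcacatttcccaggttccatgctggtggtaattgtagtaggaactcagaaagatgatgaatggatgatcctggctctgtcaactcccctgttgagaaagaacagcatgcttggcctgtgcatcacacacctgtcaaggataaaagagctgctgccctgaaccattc

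TGANTCA matches start 87 bases before the transcription start of Tchhl1, 96 before that of Crnn, 48 before that of Lor and 111 before that of Sprr1b. The middle base is G in Lor and A in Tchhl1, Crnn and Sprr1b. TATAAA starts 29, 27 and 30 bases before the start of Crnn, Lor and Sprr1b. Neither set of letters is in the windows of Tchh, Lce1e or Lce3c. RefSeq promoters were matched for 55 of the 63 members, with 59 sequences. TGANTCA was in 19 of these (32.2%) and in 6.75% of all 32851 mouse promoters of this length. It was in 9 of 14 Sprr promoters, 4 of 5 of the filaggrin family, both core envelope promoters and 0 of 20 Lce promoters. Of the hair members 1 of 6 promoters had it, and of the other S100 genes 3 of 9. TATAAA was in 24 of the 59 (40.7%) and in 12.4% of all. These shares describe the letters, and binding was not measured.

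Levels are log2 intensities minus the 75th percentile of the array, so 0 stands for that percentile, and differences are on the same log2 scale. Where values are listed, wild type is given as Wild001B1 and Wild001A1, normal skin of mutants as Mutant097B1, Mutant097A1, Mutant113B1 and Mutant113A1, and hair loss as Mutant097S1 and Mutant113S1. A gene was called at a limma adjusted p under 0.05, with p-values adjusted over all 30427 probes tested. The number of arrays limits the precision, and each array had between 25460 and 30264 probes marked well above background. The 12 interfollicular epidermis markers, keratins among them, were all measured, with summed levels of 1582 to 1872 times the 75th percentile in wild type, 1751 to 2148 in normal skin of mutants and 1972 to 2146 in hair loss. The Cchcr1 probe lay between -0.07 and 0.49 on all 8 arrays, and where it sits relative to the mutation is not known, so it checks no label. Xist was well above background in the 3 samples of Mutant113 and at background in the other 5. The Y-linked Ddx3y was well above background in those 5 and at background in Mutant113, so Mutant113 also differs from the others in sex-linked transcripts.

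Across the 49 tested members, normal skin of mutants differed from wild type in 4 genes, all higher, and hair loss differed from wild type in 9 genes, all higher. The 4 were the hair members Tchh, Tchhl1 and S100a3 and the filaggrin relative Crnn. The 9 were these 4 with Lce1d, Lce1e, Lce1f, Lce1g and S100a2. These are 8.16% and 18.4% of the members, where limma called 0.569% and 0.986% of all probes tested higher. No member was called lower, where 0.118% and 0.424% of all probes were. Between hair loss and normal skin of mutants limma called 0 members and 0% of all probes tested. At an unadjusted p under 0.05, 18 members (36.7%) were higher in hair loss and 0 lower, beside 1.80% and 3.40% of all probes tested.

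The calls against wild type depend on both wild type samples. With Wild001B1 or Wild001A1 left out, 0 members were called in either comparison, and with Mutant097S1 left out 0 were called between hair loss and wild type. With Mutant113B1 left out, 18 members were called between hair loss and wild type and 3 (Sprr2d, Sprr2e and Sprr2g) between hair loss and normal skin of mutants. With 1 mean per number and group, 0 members were called against wild type.

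**Figure D1:**
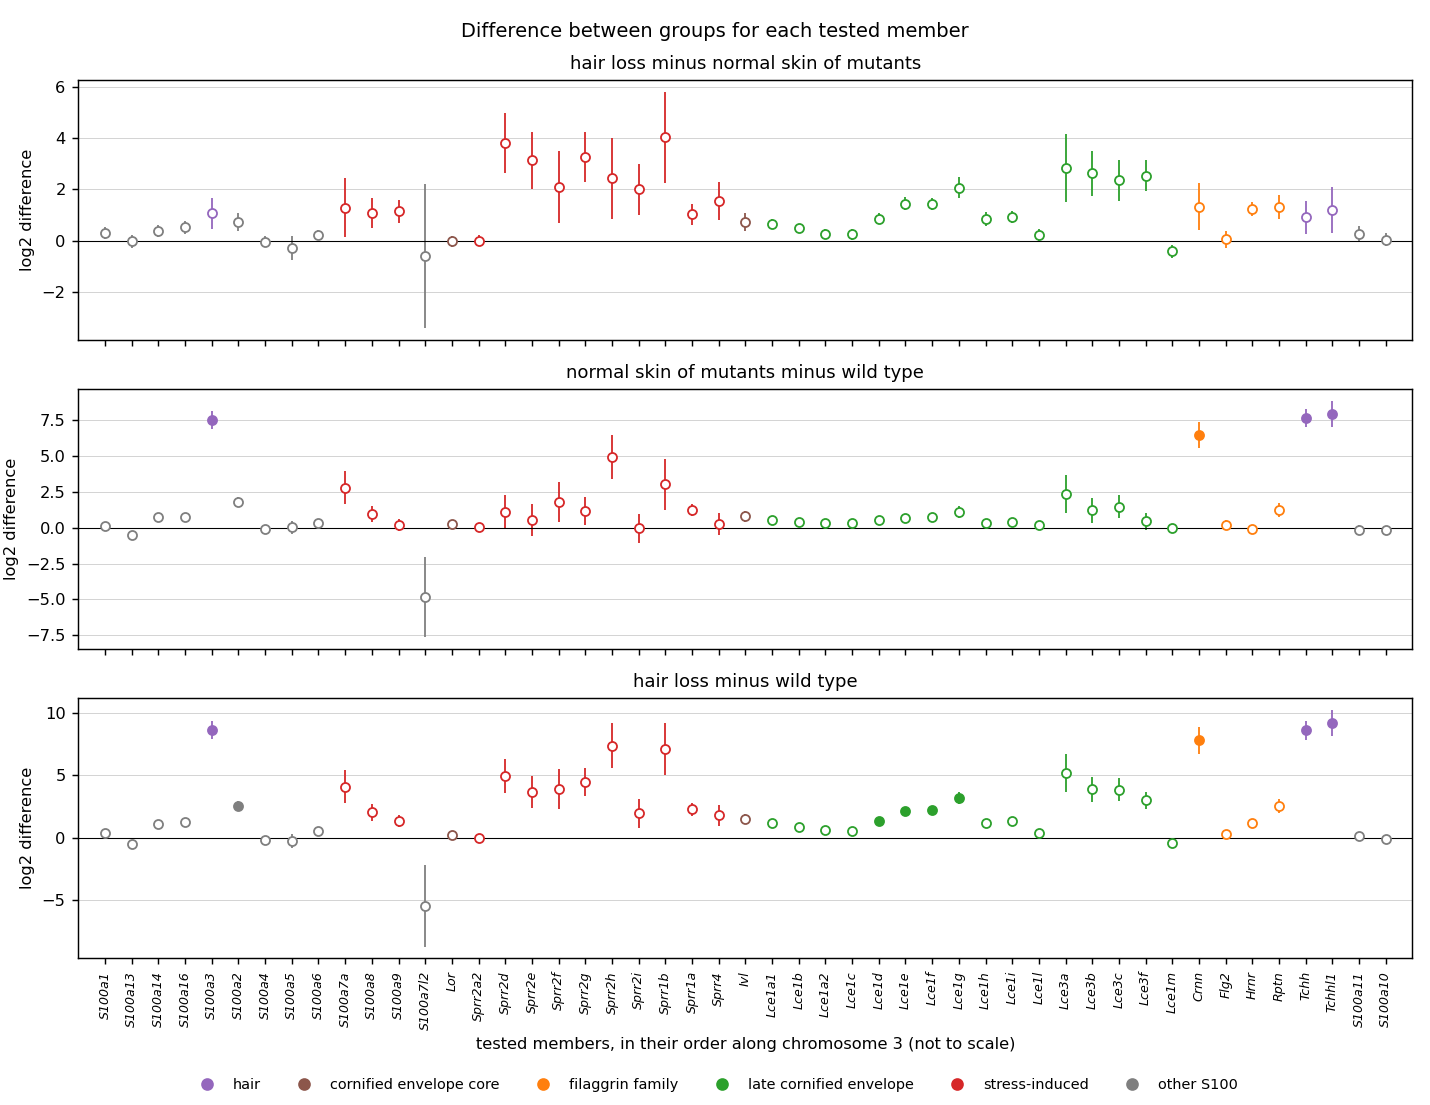
Difference between groups in log2 units (vertical axes, points with standard errors) for the 49 tested members in their order along chromosome 3 (horizontal axis, not to scale), coloured by class, with 1 panel per comparison. Filled points were called: 0 in the top panel, 4 in the middle panel and 9 in the bottom panel, where Lce1d, Lce1e, Lce1f and Lce1g stand side by side.

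Most members had a higher mean in hair loss. In 42 of 49 members the mean was higher in hair loss than in normal skin of mutants, where 49.3% of all probes were higher. In 19 members (38.8%) both hair loss samples exceeded all 4 normal skin samples of the mutants, beside 5.76% of all probes, and in 0 members did they lie below them, beside 6.64%. Against wild type, hair loss was higher without overlap in 39 members (79.6%; 24.7% of all probes) and lower in 3 (28.6% of all probes), which were S100a13, S100a7l2 and Lce1m. Normal skin of mutants lay above wild type without overlap in 20 members (40.8%; 13.5% of all probes) and below it only in S100a13 (14.9% of all probes). Members that passed the background filter through their hair loss signal alone had to differ, so the 35 members well above background on all 8 arrays were also counted. Of these 35, 14 (40.0%) were higher in hair loss than in all normal skin of mutants, beside 6.16% of the 23029 probes of that kind. Their median difference was 0.71, beside 0.002 for those probes.

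The hair members showed the widest separation. Trichohyalin (Tchh) hardens the inner root sheath and medulla, Tchhl1 is a trichohyalin-like gene next to it, and S100a3 is a calcium-binding protein of the hair cuticle. Tchh measured 0.02 and -0.72 in wild type, 7.17, 5.93, 8.44 and 7.80 in normal skin of mutants, and 8.68 and 7.81 in hair loss. All 6 mutant samples were far above both wild type samples, and the mutant groups overlapped. Tchh rose in normal skin of mutants by 7.68 (SE 0.65, limma adjusted p 0.00725), 206-fold, and its level in hair loss was higher than wild type by 8.59 (SE 0.75, limma adjusted p 0.00826). Between hair loss and normal skin of mutants the difference was 0.91 (SE 0.65, limma adjusted p 0.999).

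Tchhl1 measured -1.20 and -2.36 in wild type, 5.46, 4.59, 7.87 and 6.85 in normal skin of mutants, and 8.12 and 6.67 in hair loss. It rose by 7.97 in normal skin of mutants (SE 0.90, limma adjusted p 0.0142), and was 9.17 above wild type in hair loss (SE 1.04, limma adjusted p 0.0127). S100a3 measured -1.23 and -1.62, then 6.14, 5.003, 6.98 and 6.25, then 8.05 and 6.27, and rose by 7.52 and 8.59 (limma adjusted p 0.00698 and 0.00826). In all 3 genes both wild type samples were well above background, so these are measured levels on both sides. In all 3 the normal skin samples of Mutant113 were above those of Mutant097.

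Cornulin (Crnn), a filaggrin relative of stratified epithelia, followed the same order of groups. It measured -2.75 and -4.74 in wild type, the second at background, 2.34, 1.01, 4.40 and 3.14 in normal skin of mutants, and 4.57 and 3.53 in hair loss. No mutant sample overlapped wild type. Crnn rose by 6.47 in normal skin of mutants (SE 0.92, limma adjusted p 0.0301) and by 7.80 in hair loss (SE 1.07, limma adjusted p 0.0216). The call in normal skin ended with either hair loss sample, Mutant097B1 or Mutant113A1 left out, and under the normexp background correction, which gave a difference of 3.68 there and 4.87 in hair loss.

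In other genes of the follicle the group means mostly had the same order. The mean was higher in normal skin of mutants than in wild type in 18 of 18 genes. It was higher in hair loss than in normal skin of mutants in 17 of 18, and the summed levels of these mutant groups overlapped. Of 18 measured hair shaft and inner root sheath genes, such as the keratins Krt71, Krt25 and Krt35 and the peptidylarginine deiminase Padi3, 13 were called higher in normal skin of mutants than in wild type and 14 in hair loss, and 0 lower in either. Their summed level was 26.38 to 28.67 in wild type, 561.5 to 2488 in normal skin of mutants and 1609 to 3910 in hair loss, in multiples of the 75th percentile. The part of follicle content in the differences of Tchh, Tchhl1, S100a3 and Crnn was not tested.

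**Figure D2:**
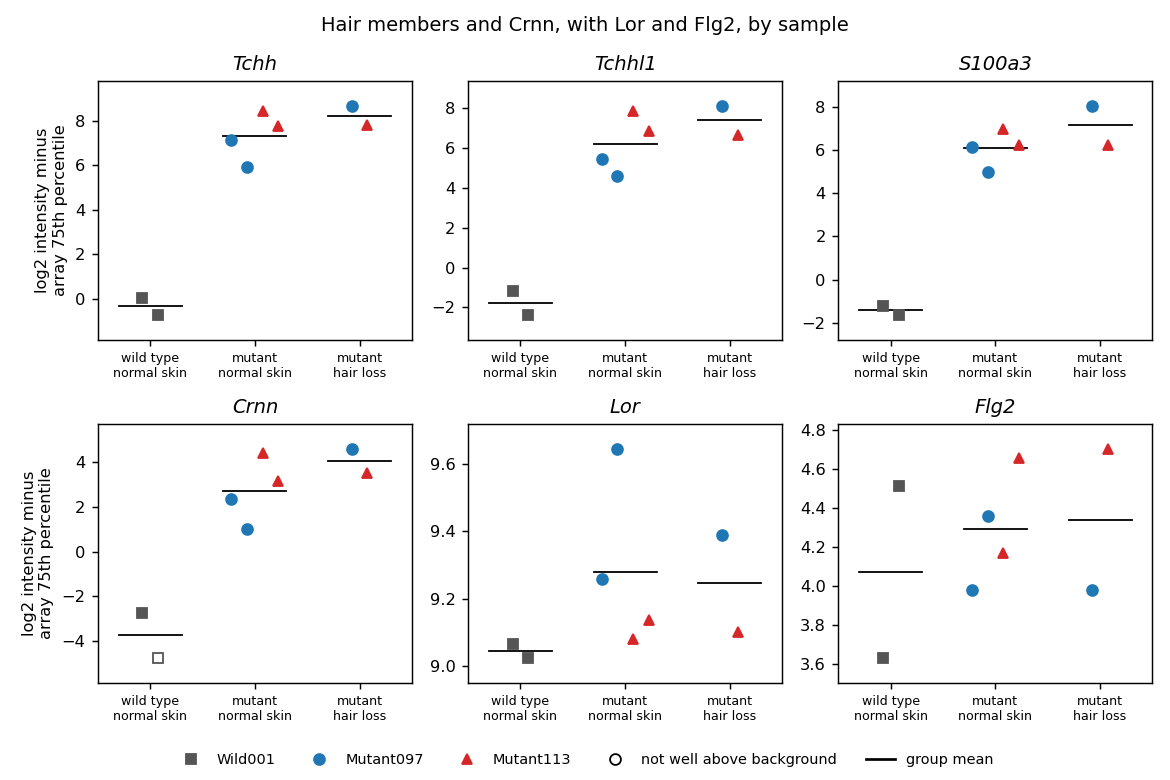
Level of 6 members in each sample (vertical axes, log2 intensity minus the 75th percentile of the array) in the 3 groups (horizontal axes), with lines for group means, shapes for title numbers and open symbols for values not well above background. Tchh, Tchhl1, S100a3 and Crnn separate both wild type samples from all 6 mutant samples, while Lor spans 9.02 to 9.64 and Flg2 3.63 to 4.70 over all samples.

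The core envelope genes varied little or in small steps. Loricrin (Lor), the most abundant protein of the envelope, ranged from 9.02 to 9.64 over the 8 samples, and its difference between hair loss and normal skin of mutants was -0.03 (SE 0.21). Involucrin (Ivl), the early scaffold of the envelope, measured 0.64 and 1.30 in wild type, 1.18, 1.46, 2.33 and 2.08 in normal skin of mutants, and 2.51 and 2.44 in hair loss. Hair loss exceeded every other sample for Ivl, while wild type and normal skin of mutants overlapped. The difference of Ivl between hair loss and wild type was 1.51 (SE 0.41, limma adjusted p 0.0922), and its other probe gave 1.40.

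In the filaggrin family, filaggrin 2 (Flg2), which like filaggrin is broken down into moisture-retaining peptides, ranged from 3.63 to 4.70 with all groups overlapping. Hornerin (Hrnr), a filaggrin relative of the cornified layer, measured 1.51 and 1.46 in wild type, 1.09, 1.36, 1.87 and 1.37 in normal skin of mutants, and 2.31 and 2.99 in hair loss. Both hair loss samples were the highest for Hrnr, and normal skin of mutants overlapped wild type. Its difference from normal skin of mutants was 1.23 (SE 0.27, unadjusted p 0.00215, limma adjusted p 0.714). It was 1.09 within Mutant097 and 1.37 within Mutant113.

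Repetin (Rptn), an envelope precursor, measured -1.68 and -1.99 in wild type, -1.57, -0.48, 0.37 and -0.76 in normal skin of mutants, and 0.48 and 0.96 in hair loss. The 3 groups did not overlap. The difference of Rptn between hair loss and wild type was 2.55 (SE 0.55, limma adjusted p 0.0642), and 1.44 with normexp. It passed the threshold under the stricter background filter, with the slide row as a block and without Mutant097B1 or Mutant113B1.

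The late cornified envelope genes, whose proteins are added to the envelope late, split by group. The 12 tested Lce1 genes were all well above background in every sample. Lce1e measured 2.78 and 3.10 in wild type, 3.59, 3.72, 3.98 and 3.18 in normal skin of mutants, and 4.89 and 5.24 in hair loss. Lce1f measured 3.19 and 3.81, then 4.07, 4.19, 4.64 and 4.23, then 5.56 and 5.87. Lce1g measured 0.28 and 0.29, then 1.80, 1.36, 2.01 and 0.44, then 3.38 and 3.55. For each of these 3 genes wild type was lowest, normal skin of mutants intermediate and hair loss highest, with no overlap between groups.

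Lce1e rose in hair loss over wild type by 2.13 (SE 0.29, limma adjusted p 0.0216), Lce1f by 2.22 (SE 0.29, limma adjusted p 0.0179) and Lce1g by 3.19 (SE 0.47, limma adjusted p 0.0279). Lce1d, which ran from 5.01 and 5.37 in wild type to 6.36 and 6.78 in hair loss, rose by 1.38 (SE 0.24, limma adjusted p 0.041). These 4 genes follow one another in the order of members along the chromosome. With the slide row as a block, where hair loss shares a row with normal skin of Mutant097 only, the limma adjusted p was 0.0511 for Lce1e, 0.0208 for Lce1f, 0.0739 for Lce1g and 0.0971 for Lce1d. Over 17 alternative settings the call held in 13 for Lce1f, 11 for Lce1g, 10 for Lce1e and 5 for Lce1d. Between hair loss and normal skin of mutants the differences were 1.45, 1.44, 2.07 and 0.86 for Lce1e, Lce1f, Lce1g and Lce1d, with limma adjusted p 0.714 for each. The unadjusted p-values ran from 0.000467 (Lce1f) to 0.00312 (Lce1d).

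Each number has 1 hair loss sample, so a difference within a number rests on that sample, which is assumed to vary like the samples of the other groups. All samples of Mutant097 were in row 1 of the slide. For Mutant113 the hair loss sample was in row 1 and both normal skin samples were in row 2. There the row cannot be told apart from the hair loss difference. The hair loss difference was 1.23 within Mutant097 and 1.66 within Mutant113 for Lce1e, 1.43 and 1.44 for Lce1f, and 1.80 and 2.33 for Lce1g. Within Mutant097 limma called 0 members and 0.631% of all probes in either direction, and within Mutant113 0 members and 0.00329%. At an unadjusted p under 0.05, 23 members were higher and 0 lower within Mutant097 and 10 higher and 0 lower within Mutant113. Of all probes, 5.68% were higher and 7.28% lower at that level within Mutant097, and 1.27% and 3.53% within Mutant113.

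Not every Lce1 gene did this. Lce1m measured 7.39 and 7.66 in wild type, 7.42, 7.89, 7.10 and 7.71 in normal skin of mutants, and 6.98 and 7.24 in hair loss, and both hair loss samples were below wild type. Its difference from wild type was -0.42 (SE 0.29, limma adjusted p 0.395). Lce1a2, Lce1c and Lce1l differed by 0.21 to 0.27 between hair loss and normal skin of mutants, with overlapping groups. A second probe of Lce1c gave 0.69 there in place of 0.24. Lce1 genes are similar in sequence, and how far their probes share targets was not tested. The median over the 12 Lce1 genes was 0.75 between hair loss and normal skin of mutants and 1.18 between hair loss and wild type, beside -0.004 and -0.06 over all probes tested.

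**Figure D3:**
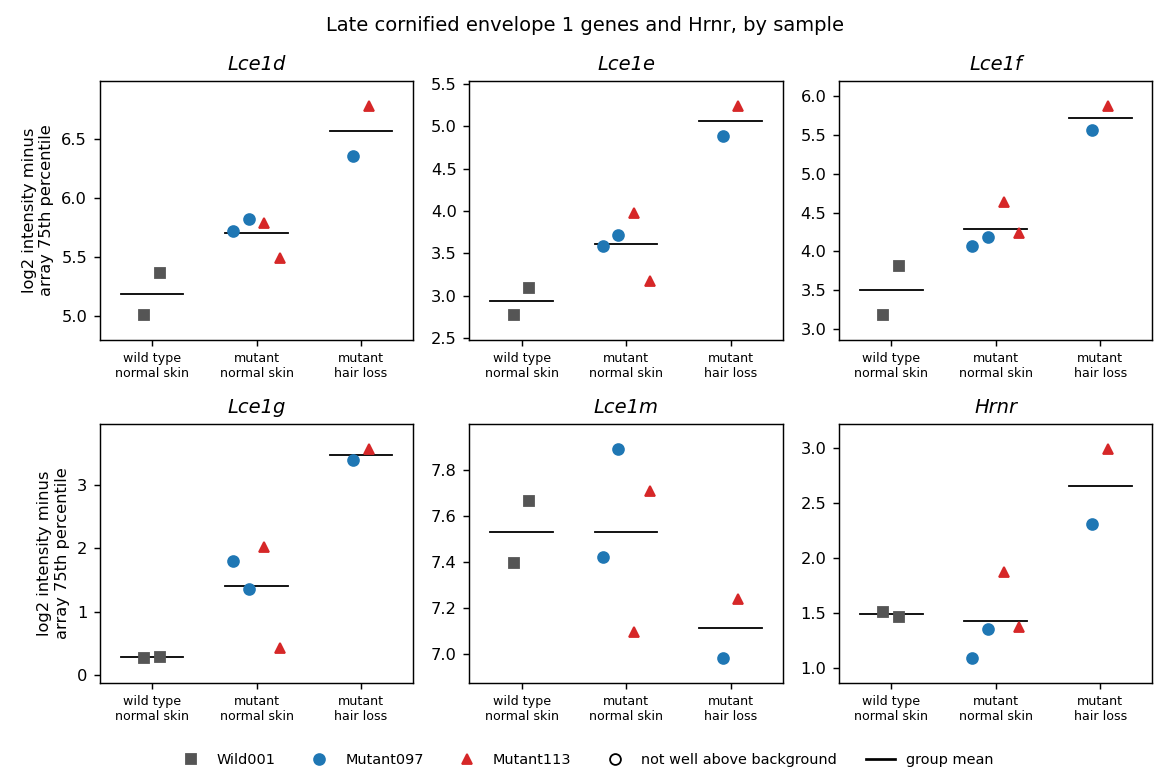
Level of 5 Lce1 genes and Hrnr in each sample (vertical axes, log2 intensity minus the 75th percentile of the array) in the 3 groups, with lines for group means and shapes for title numbers. Both hair loss samples are the highest for Lce1d, Lce1e, Lce1f, Lce1g and Hrnr, and for Lce1m they lie below both wild type samples.

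The enzymes and regulators that act with these proteins were measured as a list of 20 genes, such as transglutaminases, kallikreins and lipoxygenases. In hair loss 2 of the 20 were called higher than wild type and 0 lower, and 0 of 20 were called in either of the other comparisons. Casp14, the caspase that processes filaggrin, measured 0.91 and 1.58 in wild type, 3.21, 2.59, 2.80 and 2.51 in normal skin of mutants, and 3.84 and 3.77 in hair loss. Klk7, a protease that loosens the cornified layer, measured 1.08 and 1.66, then 2.18, 2.05, 2.58 and 1.92, then 3.15 and 3.03. Both genes had the order of groups seen for Lce1e. They rose over wild type by 2.56 and 1.72 (limma adjusted p 0.0139 and 0.0386). Tgm1, the main cross-linking transglutaminase of the epidermis, was 1.64 higher in hair loss than in wild type (limma adjusted p 0.0597).

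The stress-induced members, the Sprr genes with S100a8, S100a9 and S100a7a, had their highest median levels in hair loss and in normal skin of Mutant113. The median over the 13 tested was -4.91 and -4.04 in wild type, -2.48, -1.49, 1.16 and 0.27 in normal skin of mutants, and 1.47 and 1.03 in hair loss. The S100A8 and S100A9 proteins form the calprotectin dimer made by neutrophils and by stressed keratinocytes, and small proline-rich proteins cross-bridge the envelope. None of the 13 tested was called in any of the 3 group comparisons. At an unadjusted p under 0.05, 5 were higher in hair loss than in normal skin of mutants, 3 in normal skin of mutants than in wild type, and 10 in hair loss than in wild type, and 0 were lower in any of the 3. Over all 49 members the last 2 of these counts were 17 and 34 higher and 0 lower in both, beside 8.06% and 11.1% of all probes higher and 9.17% and 13.7% lower. Of the 13 stress-induced members tested, 7 were at background in both wild type samples and passed the filter through mutant samples. Those 7 could hardly be lower than wild type. At that level, 13 of the 35 members well above background on all 8 arrays were higher than wild type in normal skin of mutants. In hair loss 23 of the 35 were. Of the 23029 probes of that kind, 1540 and 2305 were higher.

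Sprr1a measured 5.38 and 5.47 in wild type, 6.10, 6.20, 7.67 and 6.67 in normal skin of mutants, and 7.89 and 7.48 in hair loss. Its sample of normal skin from Mutant113B1 lay between the 2 hair loss samples. The difference of Sprr1a between hair loss and wild type was 2.26 (SE 0.49, limma adjusted p 0.0652).

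Sprr1b measured -4.91 and -2.34 in wild type, -4.56, -1.29, 2.70 and 0.83 in normal skin of mutants, and 3.51 and 3.41 in hair loss, and the first value of each of the 2 normal skin groups was at background. Both hair loss samples were the highest. The difference between hair loss and normal skin of mutants was 4.04 (SE 1.78, limma adjusted p 0.963). With normexp it was 2.83.

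Apart from Sprr2a2, the tested Sprr2 genes lay at or near background in wild type. Sprr2d was at background in both wild type samples and in 3 of 4 normal skin samples of mutants (-5.43, -5.14 and -4.43), and measured -0.82 in Mutant113B1 and 0.06 and -0.32 in hair loss. Where a gene was at background on every array of a group, a lower bound of the fold was taken against the lowest probe signal well above background on each of those arrays, or the signal of the gene itself if higher. By that bound the level of Sprr2d in hair loss exceeded wild type at least 17.5-fold (limma adjusted p 0.092). Sprr2g exceeded wild type at least 12.6-fold there (limma adjusted p 0.0836), and it too was above background in Mutant113B1 and hair loss only. These bounds hold for the main background correction. With normexp, which adds an offset of 50 to every intensity, the log2 differences between hair loss and wild type were 1.51 for Sprr2d and 1.16 for Sprr2g, below both bounds.

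Sprr2h differed from these in that it was above background in all 6 mutant samples. It measured -2.48, -1.49, 3.51 and 2.08 in normal skin of mutants and 3.12 and 2.55 in hair loss, with both wild type samples at background. Against wild type it was at least 22.1-fold higher in normal skin of mutants (limma adjusted p 0.19) and at least 119-fold in hair loss (limma adjusted p 0.0789). With normexp these log2 differences were 2.15 and 3.79, again below the bounds. Sprr2e and Sprr2f were above background in hair loss and in Mutant113B1, and Sprr2f also in Mutant113A1. Sprr2a2 was discordant between probes. Its brightest probe ranged from 7.80 to 8.29 with all groups overlapping, and another measured 1.20 and 2.62 in wild type, 1.63, 2.24, 4.41 and 0.80 in normal skin of mutants, and 5.41 and 5.22 in hair loss. The Sprr2a copies are nearly identical, so which copy each probe reads is uncertain.

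The Lce3 genes, which are known from skin barrier repair, had a similar profile. Lce3b measured -2.18 and -1.80 in wild type, -2.69, -1.07, 1.11 and -0.36 in normal skin of mutants, and 2.01 and 1.74 in hair loss. Lce3c measured -1.61 and -0.52, then -1.10, 0.04, 2.16 and 0.57, then 2.87 and 2.67. For both genes the hair loss samples were the highest, Mutant113B1 came next, and the remaining normal skin of mutants overlapped wild type. The difference between hair loss and wild type was 3.86 (SE 1.01, limma adjusted p 0.0864) for Lce3b and 3.84 (SE 0.91, limma adjusted p 0.0758) for Lce3c. Lce3a and Lce3f were at background in wild type and at least 14.2-fold and 5.67-fold higher in hair loss (limma adjusted p 0.107 and 0.0764). With normexp the log2 differences between hair loss and wild type were 1.27 for Lce3a and 0.37 for Lce3f, below those bounds, and 2.56 for Lce3b.

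S100a8 measured -1.32 and -0.25 in wild type, 0.42, -1.09, 1.16 and 0.27 in normal skin of mutants, and 1.47 and 1.03 in hair loss. Hair loss was above wild type without overlap and overlapped normal skin of mutants. S100a9 measured 0.83 and 1.81, then 1.29, 0.87, 2.40 and 1.52, then 2.86 and 2.47, and both hair loss samples were the highest. The differences between hair loss and normal skin of mutants were 1.06 for S100a8 and 1.14 for S100a9 (limma adjusted p 0.991 and 0.936). Of 12 neutrophil markers measured, 4 (Ltf, Ngp, Mmp8 and Fcnb) were at background on all 8 arrays. The median of the other 8 between hair loss and normal skin of mutants was -0.10. Of these 8, 3 were higher in hair loss: Cxcr2 by 1.64, Camp by 0.76 and Csf3r by 0.17. Cxcr2 was above background only in Mutant113B1 and Mutant113S1. Csf3r made up at least 94.1% of the summed level of the 8 in every sample. Without it the sum was 3.92 to 6.41 times the 75th percentile in wild type, 1.67 to 3.64 in normal skin of mutants and 1.87 to 2.13 in hair loss.

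**Figure D4:**
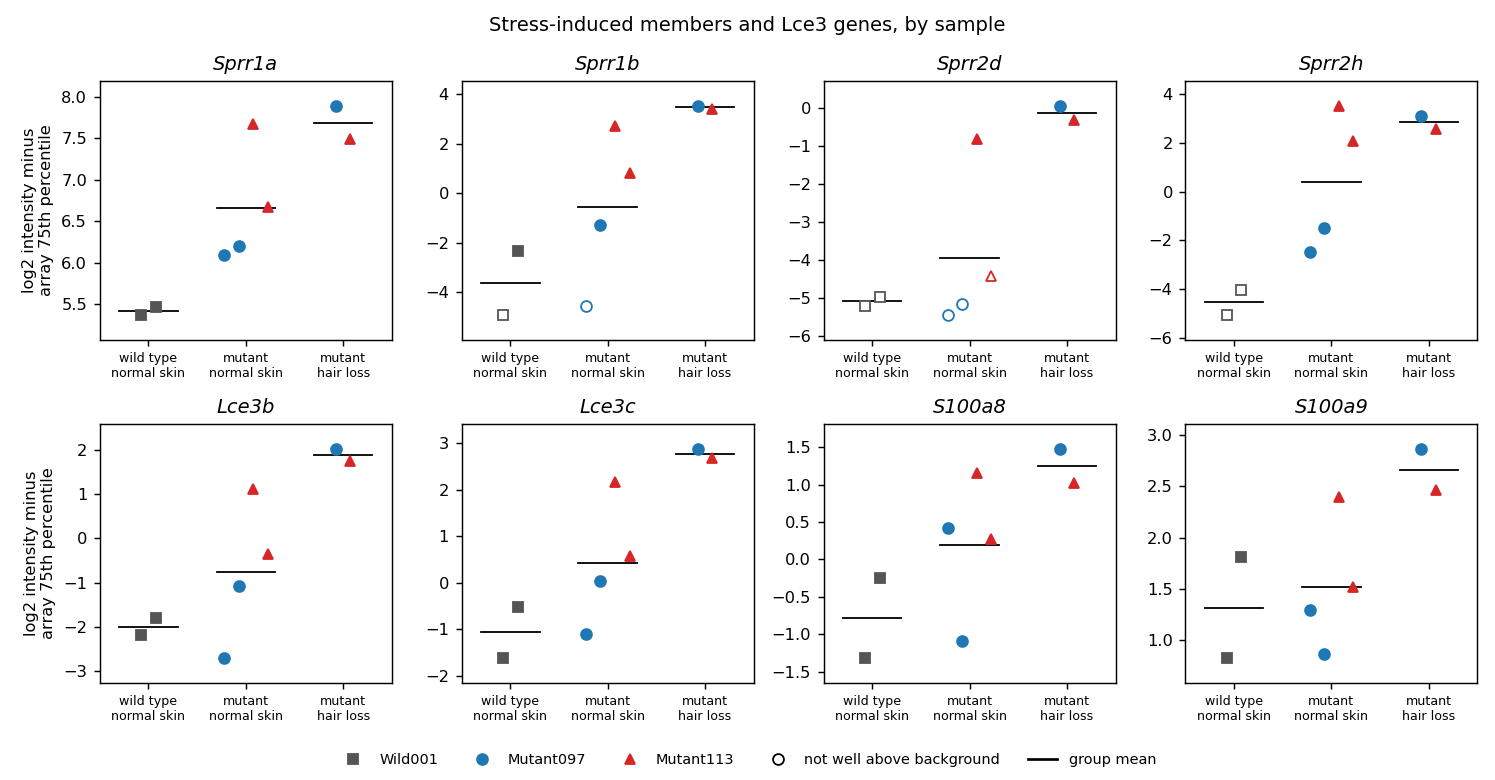
Level of 8 stress-induced and Lce3 members in each sample (vertical axes, log2 intensity minus the 75th percentile of the array) in the 3 groups, with lines for group means, shapes for title numbers and open symbols for values not well above background. Mutant113B1 is the highest normal skin sample in all 8 panels, at 2.70 for Sprr1b and 3.51 for Sprr2h.

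In 9 of 13 stress-induced members both Mutant113 samples exceeded both Mutant097 samples, and Mutant113B1 was the highest of the 4 in 11. Over all 49 members, both Mutant113 samples were above both Mutant097 samples in 20 (40.8%, beside 24.1% of all probes tested) and below them in 11 (22.4%, beside 31.9%). Mutant113B1 was the highest of the 4 in 30 (61.2%, beside 22.9%). The median difference between the numbers in normal skin was 1.90 for the stress-induced members and 2.08 for the 4 Lce3 genes, beside -0.04 for all probes tested. With values at the floor these medians were 1.74 and 2.08. Limma called 0 members between the 2 numbers in normal skin, with 0.158% of all probes called higher and 0.108% lower. Set against wild type one number at a time, normal skin of Mutant097 had 3 members called higher (S100a3, Tchh and Tchhl1), where 0.779% of all probes were. Normal skin of Mutant113 had 7 (S100a3, Tchh, Tchhl1, Crnn, S100a2, Sprr2f and Sprr2h), where 1.76% of all probes were. Of these, S100a2, Sprr2f and Sprr2h were at background in both wild type samples and passed the filter through mutant samples. They could hardly be lower than wild type.

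Keratins of stressed epidermis were high in hair loss and in Mutant113B1, and their part in the differences of the stress-induced members was not tested. Krt16, a keratin of wounded epidermis, measured 1.28 and 2.76 in wild type, 1.58, 2.59, 5.93 and 3.31 in normal skin of mutants, and 6.26 and 5.76 in hair loss. Krt6a measured 0.34 and 1.22, then 1.36, 1.62, 4.19 and 2.17, then 4.08 and 3.95. For both, Mutant113B1 was at the level of hair loss. Of the 17 genes tested in that list, 0 were called between hair loss and normal skin of mutants or between normal skin of mutants and wild type. Stfa2, a cysteine protease inhibitor, was at background in both wild type samples and at least 11.2-fold higher in hair loss (limma adjusted p 0.0135). The summed level of the list was 110.2 to 141.0 in wild type, 185.4 to 405.4 in normal skin of mutants and 410.0 to 553.3 in hair loss. Krt17 weighs most in this sum, as the brightest gene of the list in every sample. It measured 6.64 and 6.90, then 7.39, 7.48, 8.11 and 7.29, then 8.55 and 8.02.

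With 1 hair loss sample per number, the median hair loss difference over the 13 stress-induced members was 3.01 within Mutant097 and 0.51 within Mutant113. With values at the floor described above, these were 2.30 and 0.51, since 4 of the 13 were at background in both normal skin samples of Mutant097. Sprr1b differed by 6.44 within Mutant097 and by 1.65 within Mutant113, and Sprr2h by 5.11 and -0.25. The hair members likewise differed by 2.13 to 3.09 within Mutant097 and by -0.69 to -0.31 within Mutant113. Only the effect within Mutant113 spans both slide rows, so the row cannot be told apart from it or from a difference between the 2 effects. The difference between the 2 effects was tested for every probe, and limma called 0 members and 0% of all probes. At an unadjusted p under 0.05, 2 members had a higher and 6 a lower effect in Mutant113, beside 4.51% and 4.99% of all probes. The normexp correction gave adjusted p 0.00846 for Sprr2h and 0.0271 for Tchhl1 in that test. The 12 Lce1 genes all had the larger effect within Mutant113, with medians of 0.44 and 0.99.

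**Figure D5:**
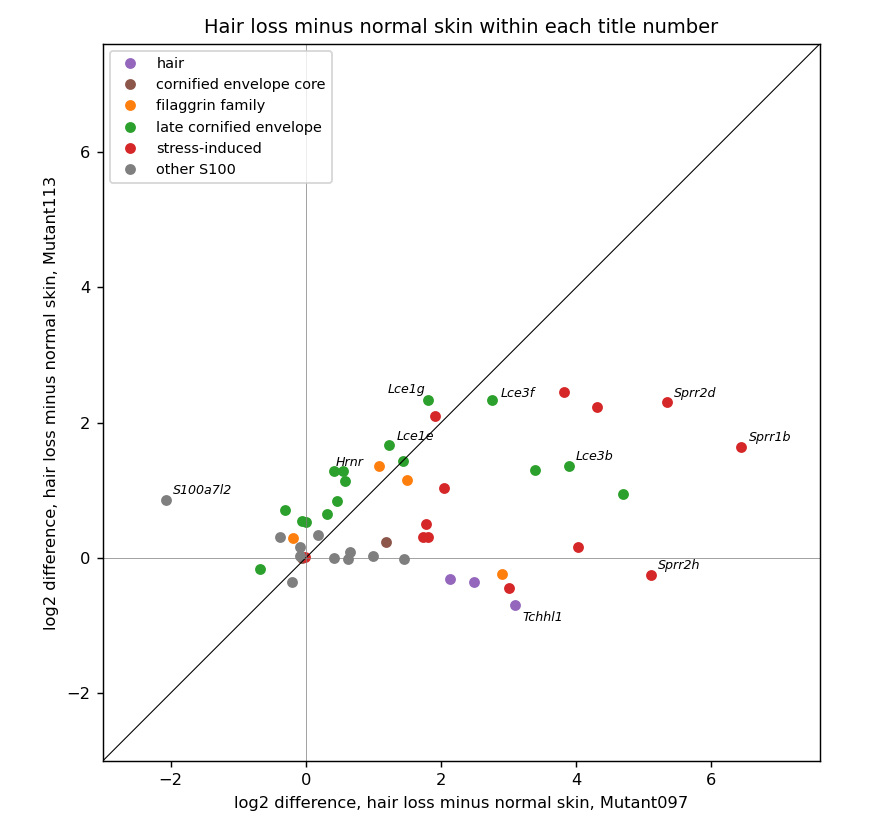
Hair loss minus normal skin in log2 units within Mutant097 (horizontal axis) and within Mutant113 (vertical axis) for the 49 tested members, coloured by class, with the line of equality. Sprr1b lies at 6.44 and 1.65 and Tchhl1 at 3.09 and -0.69, below the line, while the 12 Lce1 genes lie on or above it. Normal skin of Mutant113 was in another slide row than the hair loss samples.

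The other S100 genes mostly kept within narrow ranges. Over the 11 tested, the median difference was 0.21 between hair loss and normal skin of mutants and 0.13 between hair loss and wild type. S100a2, a keratinocyte S100 protein, was at background in wild type and measured -2.79, -3.38, -2.31 and -2.84 in normal skin of mutants and -1.63 and -2.59 in hair loss. All 6 mutant samples were above background. In hair loss S100a2 exceeded wild type at least 4.42-fold (limma adjusted p 0.0342). With normexp its difference was 0.30 and was not called, where the main value was 2.55. The call also ended without the filter on dim probes and without Mutant097B1, Mutant113A1 or any sample whose loss ended all calls.

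S100a14 and S100a16, epithelial S100 proteins, were higher without overlap in both mutant groups than in wild type. S100a14 measured 5.51 and 6.08 in wild type, 6.55, 6.57, 6.69 and 6.41 in normal skin of mutants, and 7.22 and 6.63 in hair loss, where its difference from wild type was 1.13 (SE 0.28, limma adjusted p 0.0785). For S100a16 that difference was 1.24 (SE 0.31, limma adjusted p 0.084). S100a13 went the other way, at 4.42 and 4.23 in wild type and 3.55 to 4.18 in the mutant samples, and its difference between normal skin of mutants and wild type was -0.47 (SE 0.26, limma adjusted p 0.404). S100a4, S100a10 and S100a11 overlapped in all comparisons.

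S100a7l2 varied widely between samples of a group, although both hair loss samples lay below both wild type samples. It measured 1.97 and 5.66 in wild type, 0.11, 5.11, -4.93 and -4.36 in normal skin of mutants, the last pair at background, and 0.54 and -3.78 in hair loss. In Wild001 and in the normal skin of Mutant097 the A sample was above the B sample, and the 3 samples of Mutant113 were the lowest. Of 10 partners and receptors of S100 proteins, 8 were tested and 0 were called in any of the 3 group comparisons.

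Ordered by class, the medians between hair loss and wild type were 8.59 for the hair members, 3.67 for the stress-induced members, 1.86 for the filaggrin family, 1.37 for the Lce genes, 0.85 for the core envelope genes and 0.13 for the other S100 genes. With values under the floor of an array set at that floor, the stress-induced median was 2.29, since 7 of its 13 members were at background in wild type. Between normal skin of mutants and wild type the same classes gave 7.68, 1.13, 0.72, 0.48, 0.51 and 0.03, and between hair loss and normal skin of mutants 1.07, 2.01, 1.28, 0.89, 0.34 and 0.21. With values at the floor, the stress-induced medians in these were 0.72 and 1.35.

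Markers of other cell types also differed between the samples. The summed level of 8 skeletal muscle genes was 1659 to 1730 in wild type, 716.6 to 1695 in normal skin of mutants and 288.9 to 837.7 in hair loss, and 1 of them, Mylpf, fell in hair loss relative to wild type (limma adjusted p 0.0466). The 7 melanocyte genes summed to 20.58 to 24.29, 12.73 to 79.27 and 32.84 to 67.24 in the same groups. The 6 macrophage and monocyte genes summed to 130.4 to 157.3, 63.12 to 104.7 and 72.07 to 80.63. The 6 adipocyte genes summed to 129.9 to 134.2, 139.8 to 216.5 and 167.1 to 223.4. Their part in the differences of the members was not tested.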

How the data were processed

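RNA from 8 skin samples was hybridised to 8 single-colour arrays on 1 slide. Per the file headers, the deposited intensity of each spot was corrected for background and for spatial trends by Agilent Feature Extraction, whose version 11.5.1.1 is given in the submitters' processing notes. The series matrix of the authors holds deposited log2 values, which differ from the log2 of the processed intensity by 1 shift per array, within 0.01 for each of 55603 probes.

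Values here were log2 processed intensities averaged over the spots of a probe, without controls and outlier flags, minus the 75th percentile of the array. No spot was saturated. A gene was represented by its probe with the highest mean. A 3-group linear model was fitted to all 8 arrays with limma 3.58.1 in R 4.3.3, and a second model, for effects within a number, had 1 term per group and number. Tests were two-sided, with Benjamini-Hochberg adjustment over 30427 probes. The script was tested on simulated data.

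The members and the gene lists were chosen with earlier results of these data known. Genes given in full were the hair, core envelope and filaggrin family members, S100a8, S100a9, Sprr1a and Sprr1b, members called in any comparison, and per class the 3 with the largest differences in each direction. Others are named where they differ from their class. Symbols came from RefSeq accessions. Array positions are not given, since the build of the gene table is not that of the array. Alternatives were normexp, quantile normalization, the series matrix, no or a stricter filter on dim probes, the title number as a block or averaged, the slide row as a block, the mean over the probes of a gene, and leaving out each sample. The files hold no mean signal, so normexp was run on the median signal, which was chosen after seeing the data.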

Additional observations from a re-analysis of the deposited data

Results flagged for a closer look

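In normal skin of mutants, 49 members were checked for a sample that stood apart from the other 3, by the critical value of Dixon's ratio for a group of 4, which chance exceeds in about 1 in 20 groups. Of the 49, 2 did so, which is no more than that rate gives, and both rest on values at background. The sample was Mutant113B1 in both. Sprr2e was at -2.06 there and at -6.39 to -5.78 in the other 3, which were at background (ratio 0.859). S100a5 was at -4.05, at background, and at -3.14 to -3.06 in the other 3, of which 1 was at background (ratio 0.923). The difference in hair loss effect between the 2 numbers was called for 0 members by limma.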

How the results depend on the processing

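All alternatives were run for the 3 group comparisons, and 5 of them for the difference in hair loss effect between the numbers. Between normal skin of mutants and wild type, 209 probes were called, and 128 with no filter, 858 with the slide row as a block and 0 when each number and group had 1 mean. Of the members, 7 were called there with the slide row as a block and 0 with 1 mean per number. Hair loss and normal skin of Mutant097 were in row 1 of the slide, and normal skin of Mutant113 and wild type in row 2. In normal skin of mutants the row therefore cannot be told apart from the number, and hair loss and wild type share no row. Between hair loss and wild type, 429 probes were called, and 185 with no filter, 833 with the stricter filter, 1335 with the slide row and 0 with 1 mean per number, which gave 0 members, where the slide row gave 18. Leaving out 1 sample at a time gave 0 to 11 probes and 0 to 3 members between hair loss and normal skin of mutants, 0 to 191 probes and 0 to 4 members between normal skin of mutants and wild type, and 0 to 706 probes and 0 to 18 members between hair loss and wild type. The title number as a replicate block, possible only among the mutants, called 0 members, and the labels do not say that it pairs samples. S100a7l2, -0.60 between hair loss and normal skin of mutants, ran, with 1 sample left out, from -2.76 without Mutant097S1 to 1.56 without Mutant113S1, was also reversed, at 1.44, without Mutant097A1, and was -4.23 with the slide row as a block. Of 1455 gene values under an alternative, 1353 kept direction and side of the threshold, 70 lost and 30 gained a call and 2 reversed. Only members called under the main setting could lose a call, so most of the 1455 values had none to lose. Those members were 4 between normal skin of mutants and wild type and 9 between hair loss and wild type, and the 70 losses all fell on them. Of 312 class medians, 7 moved by more than the spread. The causes were not tested. The 2 wild type samples, at background in 11 tested members, limit every comparison with wild type.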
